A study of Bos taurus with 6 samples.

Results

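The proteasome genes of the longissimus dorsi, a back muscle, were described in 3 Japanese Black and 3 Holstein steers. The members were defined by name, with earlier results of these data known. They were every gene whose platform symbol begins with PSMA, PSMB, PSMC, PSMD, PSME, PSMF or PSMG, each represented by its brightest probe set. This gave 40 of 9155 named genes, measured by 46 probe sets, and 6 genes had a pair of probe sets. PSMA2, PSMD3, PSMD7, PSMD8, PSMD12, PSME3 and PSMG4 were not analysed here. One of the 40, PSME3IP1, carries the prefix but encodes an interaction partner of an activator and no subunit. All 6 animals were male and had been given energy-rich feed, and the breeds differ in use: Japanese Black is a beef breed with abundant fat within the muscle, Holstein a dairy breed. The labels state neither the age of the animals nor which of them form a pair, and steers on any other feed were not analysed here. Total RNA of each animal was measured on 1 array, and a value is the linear signal of a probe set in intensity units. With so few arrays every value has limited precision, and the labels do not say how the animals were sampled from each breed.

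The proteasome is the protease that destroys proteins tagged with ubiquitin. Its 20S core is a barrel of stacked rings. Alpha subunits (PSMA) form the outer rings and gate the entry, and beta subunits (PSMB) form the inner rings, of which PSMB5, PSMB6 and PSMB7 carry the cutting sites. The 19S particle sits on the end of the barrel. Its PSMC subunits are a ring of ATPases that unfold the substrate, and its PSMD subunits bind and trim the ubiquitin chain. Under interferon, and constantly in cells of the immune system, PSMB8, PSMB9 and PSMB10 replace the constitutive cutting subunits in newly built cores, and PSME1 and PSME2 form an alternative cap, PA28, that favours the making of peptides for antigen presentation. In skeletal muscle the ubiquitin-proteasome route degrades a large part of the contractile proteins, and its activity is known to increase in wasting.

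The arrays were those of skeletal muscle. CKM, the creatine kinase of muscle, read between 11917 and 14562 in all 6 animals. Holstein 3 stood apart in the control signals: its BioB hybridisation control read 451 against 259 to 304 in the other arrays. The 3′ to 5′ ratio of actin, a sign of RNA integrity, was 1.11 to 1.14 in the Japanese Black arrays and 1.003 to 1.07 in the Holstein ones, so that it separated the breeds. Japanese Black 3 had the highest upper quartile of signal, 205 against 172 to 181. The part of these array differences in the results below was not tested. Values without Holstein 3 are given for a part of the members, and not for the genes of the pathway and marker lists.

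No proteasome gene differed between the breeds past an adjusted p of 0.05 (limma, Benjamini-Hochberg over 18012 probe sets, two-sided). The count was 0 of 40, where 0.0167% of all tested probe sets were called, and the smallest adjusted p of a member was 0.313. All 40 genes passed the filter on dim probe sets. At an unadjusted p under 0.05 there were 4 members, or 10%, against 12.6% of all tested probe sets. PSME4 and PSMC6 were higher and PSME1 and PSMG1 lower in Japanese Black. The breeds did not overlap for 8 members, or 20%, against 19.8% of all tested, 4 in each direction. Both shares lay near the background. Each difference is the Japanese Black mean less the Holstein mean of log2(signal + 16). Of the 40 differences 15 were above and 25 below 0, with a median of -0.061 beside 0.0067 for all tested probe sets. The median was -0.0030 without Holstein 3, with 20 of 40 above 0.

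**Figure D1:**
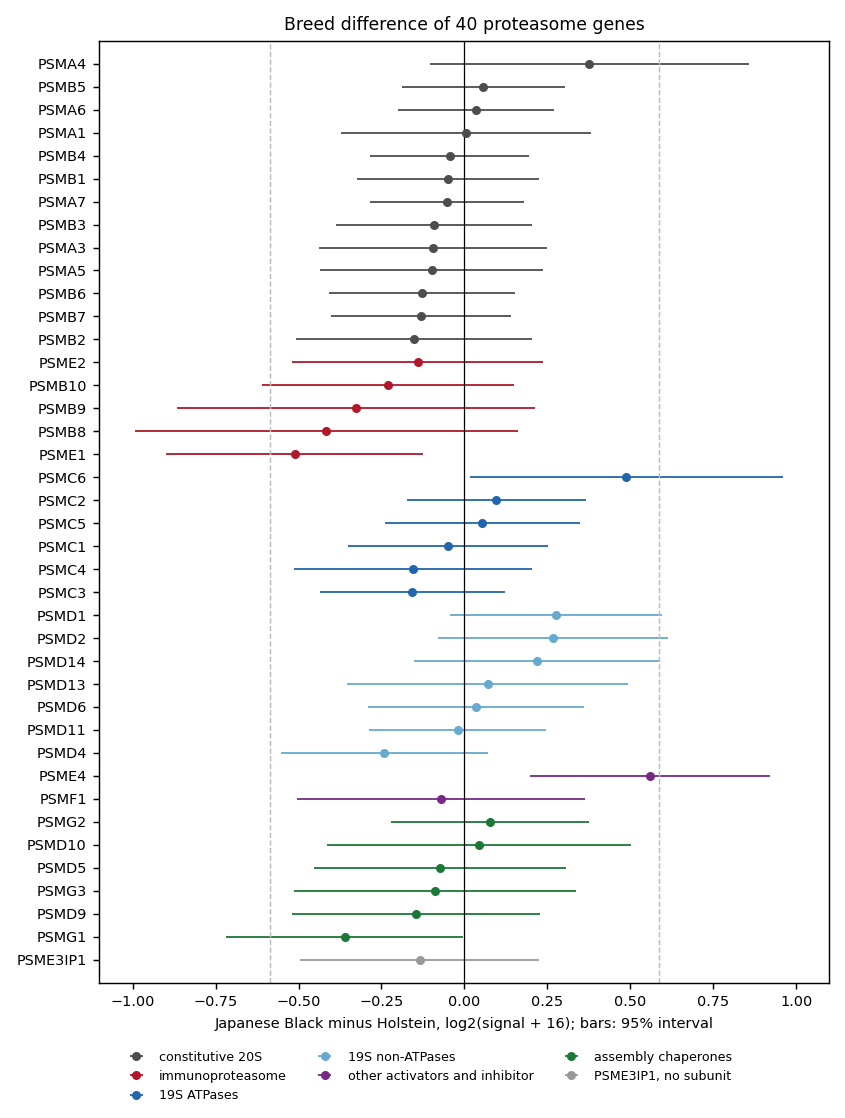
Difference between the breeds for each of the 40 genes, as the Japanese Black mean less the Holstein mean of log2(signal + 16), with the 95% interval of the limma fit (n = 3 per breed) and colours for the parts of the complex. Dashed lines mark a 1.5-fold difference; 12 of the 13 constitutive 20S intervals lie between them, and those of the immunoproteasome lie mostly to the left of 0.

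The constitutive 20S core read nearly the same in both breeds. Its 13 measured genes had log2 differences between -0.15 (PSMB2) and 0.38 (PSMA4), 4 above and 9 below 0, with a median of -0.051. For 12 of the 13, or 92.3%, the whole 95% interval lay within a 1.5-fold difference in either direction, against 39.9% of all tested probe sets and 51.8% of the 1182 whose mean signal lay in the same range. The share over all tested depends on the offset: with an offset of 1 it was 19.8% and with one of 64 it was 73.4%, while the 20S count was 12 under both. These genes also varied little between animals of a breed: the median SD on the log2 scale was 0.11, against 0.23 over all tested probe sets and 0.19 over those in the same signal range. The share is a description of precision: for these 12 genes the data bound the difference, and they do not show that it is 0.

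The cutting subunits of the constitutive core show how close the animals were. PSMB5, which carries the chymotrypsin-like site, read 3511, 3511 and 3554 in Japanese Black 1 to 3 and 3355, 3269 and 3552 in Holstein 1 to 3. The breeds overlapped, and the highest and the lowest of the 6 arrays lay 0.12 apart on the log2 scale. Its log2 difference was 0.06 (SE 0.11, adjusted p 0.843 in the limma fit), with a 95% interval from -0.19 to 0.30. PSMB6, which carries the caspase-like site, read 2883, 2985 and 2656 in Japanese Black and 3139, 2832 and 3368 in Holstein, a difference of -0.13 (SE 0.12, limma adjusted p 0.666). It was -0.071 without Holstein 3, -0.081 without Japanese Black 3 and -0.20 without Holstein 2. The breeds overlapped here too, through Holstein 2. PSMB7, which carries the trypsin-like site, read 1981, 1978 and 2061 against 2233, 2078 and 2291. The 2 breeds lay apart, but the lowest Holstein and the highest Japanese Black animal were only 17.0 units apart, and the difference of -0.13 (SE 0.12) had an adjusted p of 0.650 in limma.

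Among the alpha subunits PSMA4 was the exception in size. It read 1128, 1322 and 1115 in Japanese Black and 1000, 1145 and 654 in Holstein. Only Holstein 3 was clearly low, and the other Holstein animals lay within or just below the Japanese Black range. The log2 difference of 0.38 (SE 0.21, limma adjusted p 0.480) was 0.14 without Holstein 3. PSMA6, an alpha subunit with a bright probe set, lay between 4676 and 5210 in all 6 animals, and PSMA7, of the same ring, between 5412 and 6148. The other alpha subunits PSMA1, PSMA3 and PSMA5 had differences of 0.01, -0.10 and -0.10. The structural beta subunits PSMB1, PSMB2, PSMB3 and PSMB4 had -0.05, -0.15, -0.09 and -0.04, and the second probe set of PSMB2 gave -0.18.

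All 5 immunoproteasome genes had lower means in Japanese Black, with log2 differences from -0.51 to -0.14 and a median of -0.33. In limma 0 of the 5 passed the adjusted threshold. At an unadjusted p under 0.05 there was 1, PSME1, or 20%, against 12.6% of all tested probe sets. The spread between animals was wide, and 2 animals set most of it. Without Holstein 3 the median was -0.17, and without Japanese Black 2 it was -0.20. Without Holstein 2, which read low for its breed, it was -0.52. PSMB8, the chymotrypsin-like subunit of the immunoproteasome, read 125, 87.7 and 147 in Japanese Black and 162, 118 and 223 in Holstein. Japanese Black 2 was the lowest and Holstein 3 the highest array, and the breeds overlapped. The difference was -0.42 (SE 0.25, limma adjusted p 0.505). Leaving out Holstein 3 gave -0.21, leaving out Japanese Black 2 gave -0.23 and leaving out Holstein 2 gave -0.63. PSMB9, the immunoproteasome subunit that takes the place of PSMB6, read 191, 159 and 235 against 241, 184 and 335. It had the same lowest and highest animals, and its difference of -0.33 (SE 0.24, limma adjusted p 0.567) was -0.12 without Holstein 3, -0.20 without Japanese Black 2 and -0.52 without Holstein 2. PSMB10, which takes the place of PSMB7, read 234, 199 and 259 against 260.5, 259 and 297. Here the breeds were separated by a margin of 0.26 units, and the difference of -0.23 (SE 0.17, limma adjusted p 0.566) was -0.13 without Japanese Black 2.

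The activator genes PSME1 and PSME2, whose products build the PA28 ring together, gave different pictures. PSME1, the alpha subunit of PA28, read 781, 686 and 745 in Japanese Black and 1110, 859 and 1236 in Holstein. Every Holstein animal lay above every Japanese Black animal, and Holstein 2 was the nearest to the other breed. It differed by -0.51 on the log2 scale (SE 0.17), or 1.43-fold, with a 95% interval from -0.90 to -0.12 and a limma adjusted p of 0.336. Leaving out Holstein 3 gave -0.40 (limma adjusted p 0.657) and leaving out Holstein 2 gave -0.66 (limma adjusted p 0.205). PSME2, the beta subunit, read 632, 516 and 720 against 644, 706 and 696, and here Japanese Black 3 was the highest array. Its difference was -0.14 (SE 0.17, limma adjusted p 0.734). Leaving out Japanese Black 2 gave -0.015, and leaving out Japanese Black 3 gave -0.25. The ratio of PSME1 to PSME2 within an array was 0.37 lower in Japanese Black on the log2 scale, a value computed after both genes had been seen and left without a test. Holstein 2, with a ratio 0.16 below the mean of the 6 arrays, lay within the Japanese Black values, which ran from 0.39 to 0.03 below it.

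**Figure D2:**
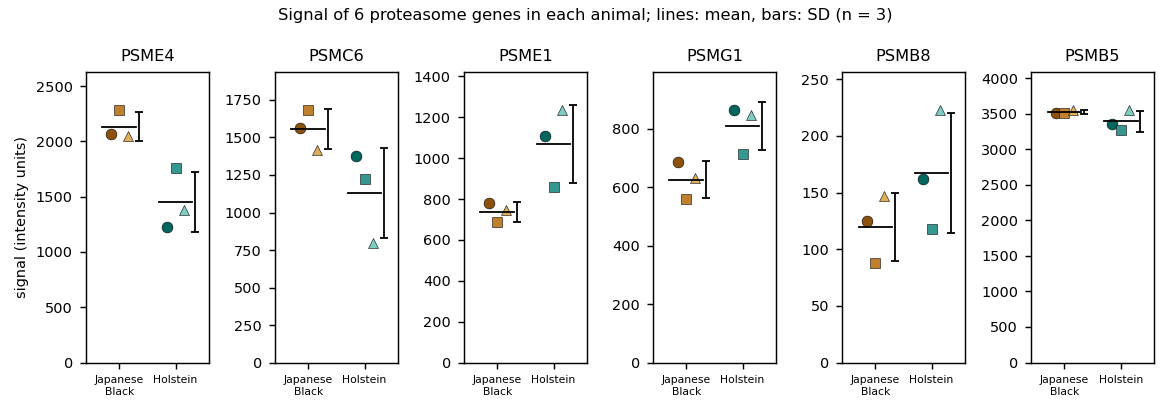
Signal in intensity units of 6 genes in each animal, with each axis starting at 0; points are animals (circle 1, square 2, triangle 3), lines are breed means and bars are SD (n = 3). PSME4, PSMC6, PSME1 and PSMG1 separate the breeds, PSMB8 overlaps between 118 and 147, and PSMB5 stays between 3269 and 3554 in all 6 animals.

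The exchange of cutting subunits was examined only in RNA, as the signal ratio of each immunoproteasome gene to the constitutive one whose product it replaces. The subunits built into the cores were not measured. A ratio within an array removes a scale factor shared by its probe sets, though not fully where the offset bears on dim signals. Levels of different probe sets cannot be compared, so only the change of the ratio between breeds is given. PSMB8 to PSMB5 was 0.47 lower in Japanese Black on the log2 scale, with SDs of 0.33 and 0.36 (n = 3 each) and an exact permutation p of 0.20. PSMB9 to PSMB6 was 0.20 lower and PSMB10 to PSMB7 0.10 lower, with an exact permutation p of 0.50 for each. All 3 ratios overlapped between the breeds, their p-values adjusted over the 3 ratios were 0.50 (exact permutation test, two-sided), and 3 animals against 3 cannot give less than 0.10. Without Holstein 3 the log2 changes were -0.30, -0.045 and -0.069. Without Japanese Black 2 they were -0.29, -0.035 and -0.014. Over all fits that left out 1 array, the lowest values were -0.66, -0.38 and -0.16. With an offset of 1 or 64 the change of PSMB8 to PSMB5 was -0.52 or -0.38.

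Some lists of other genes had the same lowest and highest animals as the immunoproteasome genes, and others did not. The mean level of the 5 genes was 0.39 below the 6-array mean in Japanese Black 2 and 0.41 above it in Holstein 3 on the log2 scale. Interferon-regulated and antigen processing genes, of which 24 were tested, were 0.25 below and 0.37 above in the same animals, and 20 leukocyte markers 0.21 below and 0.36 above. In each of the 3 sets these were the lowest and the highest of the 6 arrays. Within the interferon and antigen processing list the genes differed. IFI6 and ISG15 read 682 and 317 in Holstein 3, against 65.8 to 95.3 and 50.2 to 76.4 in the other arrays. PDIA3 and TAPBP were also highest in Holstein 3. B2M and TAP2 were not, and CANX and JAK1 were lowest in it. Endothelial, fibroblast and smooth muscle markers were lowest in Japanese Black 2 as well, at 0.40, 0.47 and 0.69 below. In Holstein 3 the first 2 of these were 0.22 and 0.078 above the mean, but the smooth muscle markers were 0.23 below it. Adipocyte markers were lowest in Holstein 3, at 0.99 below, and highest in Japanese Black 3, at 1.17 above. The leukocyte markers were dim. Summed over 22 genes their signal ranged from 1172 to 1617 in Japanese Black and from 1324 to 1979 in Holstein, and 0 of the 22 were listed at 0. PTPRC, the common leukocyte antigen, read 82.7, 89.5 and 160 in Japanese Black and 138, 99.8 and 75.7 in Holstein and was lowest in Holstein 3. In such bulk tissue fewer cells of a type and less RNA per cell cannot be told apart, and the part of these cells in the immunoproteasome values was not tested.

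In those lists, too, 0 genes passed the adjusted threshold in limma. At an unadjusted p under 0.05 in limma, which 12.6% of all tested probe sets reached, there were 2 of 24 interferon and antigen processing genes, 1 in each direction. There were also 2 of 20 leukocyte and 2 of 9 endothelial markers, lower in Japanese Black. Of the interferon and antigen processing genes 7 had higher and 17 lower means in Japanese Black, and the median difference was -0.16. Against the 6-array mean, the level of this list was -0.12, -0.25 and 0.11 in Japanese Black and 0.047, -0.15 and 0.37 in Holstein. For the leukocyte list the levels were -0.14, -0.21 and 0.073 against -0.073, 0.00078 and 0.36. In both lists only Holstein 3 lay above the Japanese Black values. IFIT2, an interferon-induced gene, had the smallest p (-0.54, limma adjusted p 0.321), with signals so dim that the offset bears on its size, followed by CANX, an endoplasmic reticulum chaperone (0.33, limma adjusted p 0.395), and IRF9, a factor of interferon signalling (-0.45, limma adjusted p 0.458). Of the leukocyte markers 6 were higher and 14 lower, with a median of -0.17; CD4, a T helper cell receptor (-0.88), CD8A, of cytotoxic T cells (-0.42), and CORO1A, of the leukocyte cytoskeleton (-0.43), came first. Of the endothelial markers 1 was higher and 8 lower, with a median of -0.30, and EGFL7 (-0.61), ROBO4 (-0.65) and CLDN5 (-0.52) had the smallest p.

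**Figure D3:**
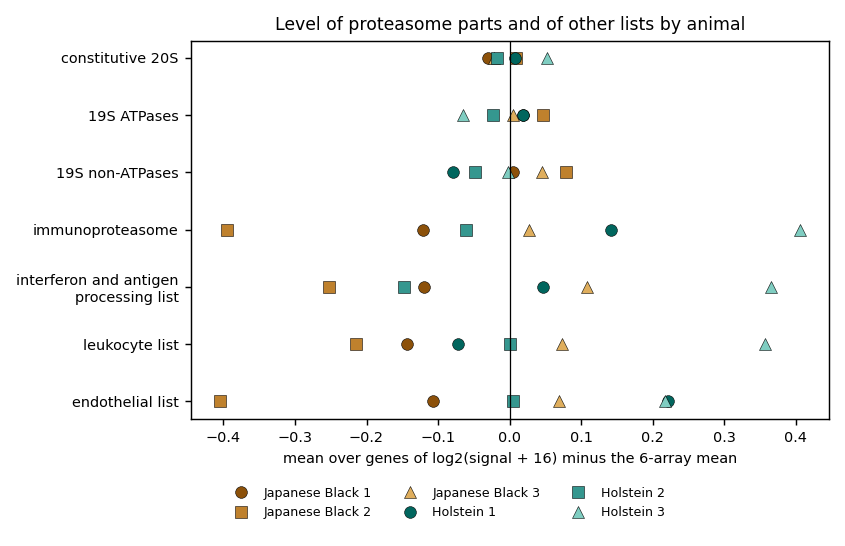
Mean over the genes of each set of log2(signal + 16) minus the gene's mean over the 6 arrays, 1 point per animal. The 20S core and the 19S groups stay within about 0.08 of 0, while the immunoproteasome, interferon, leukocyte and endothelial sets all have Japanese Black 2 as the lowest animal.

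In the RefSeq gene order of the assembly ARS-UCD2.0, which was used here for neighbourhood only, PSMB8 and PSMB9 are separated by 1 protein-coding gene, TAP1, and PSME1 and PSME2 by 1, EMC9. TAP1 encodes part of the transporter that carries proteasome-made peptides into the endoplasmic reticulum. It read 138, 99.5 and 164 in Japanese Black and 216, 139 and 195 in Holstein. As for its neighbours, Japanese Black 2 was the lowest array, but the highest was Holstein 1, not Holstein 3. Its log2 difference was -0.42 (SE 0.23, limma adjusted p 0.469).

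The 19S particle had a slightly higher mean level in Japanese Black, and its subunits differed in direction. Averaged over its 13 genes the level lay 0.011, 0.064 and 0.027 above the 6-array mean in Japanese Black and 0.034, 0.036 and 0.031 below it in Holstein on the log2 scale. The breeds did not overlap in that mean, nor in the mean of the non-ATPases, whereas they overlapped for the ATPases. Both separations were fragile. That of the 13-gene mean depended on PSMC6, whose deviation from its own 6-array mean was -0.71 in Holstein 3. For the non-ATPases, Japanese Black 1 lay only 0.0055 above the 6-array mean and Holstein 3 just below it. For 3 genes, or 23.1%, every Japanese Black animal lay above every Holstein animal, and for 0 the reverse held, against 19.8% of all tested probe sets without overlap in either direction. Of its 13 measured subunits 8 had higher and 5 lower means in Japanese Black. The median difference was 0.054 on the log2 scale. Over all tested probe sets the median was 0.0067, and over the 1182 in the signal range of the constitutive 20S genes it was 0.066. The 19S median was thus no higher than that of those bright probe sets. It turned to -0.016 after quantile normalization and to -0.013 without Holstein 1. Among the 6 ATPases the median was 0.0025, and 5 had differences between -0.16 and 0.10. The remaining one was PSMC6, which read 1561, 1684 and 1417 in Japanese Black and 1374, 1221 and 794 in Holstein. The breeds lay apart by 43.0 units between Japanese Black 3 and Holstein 1, and Holstein 3 was far below the rest. It differed by 0.49 on the log2 scale (SE 0.21), or 1.40-fold, with a limma adjusted p of 0.390. The second probe set of PSMC6 gave 0.43 (SE 0.20) with the same lowest animal, Holstein 3, and there the breeds overlapped. At the brighter probe set the difference was 0.26 without Holstein 3 and 0.65 without Holstein 1. The other pairs of ATPase probe sets, those of PSMC2 and PSMC5, lay 0.031 and 0.075 apart on the log2 scale. For PSMC5 they had opposite signs (0.054 and -0.021).

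The 7 non-ATPase subunits of the 19S particle had 5 higher and 2 lower means in Japanese Black. PSMD1 and PSMD2, the large scaffold subunits of the base, both lay higher. PSMD1 read 1593, 1618 and 1579 in Japanese Black, a spread of 38.9 units, and 1497, 1307 and 1165 in Holstein. PSMD2 read 1396, 1397 and 1339 against 970, 1154 and 1329, so that Holstein 3 nearly reached the other breed. Neither gene overlapped between the breeds, and the log2 differences were 0.28 (SE 0.14, limma adjusted p 0.451) and 0.27 (SE 0.15, limma adjusted p 0.484). Without Holstein 1 the difference of PSMD2 was 0.15. PSMD14, the enzyme that cuts the ubiquitin chain from the substrate, read 1562, 1594 and 1746 against 1614, 1506 and 1131, and its difference of 0.22 (SE 0.16, limma adjusted p 0.581) was 0.066 without Holstein 3.

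PSMD4, a ubiquitin receptor of the 19S particle, was lower in Japanese Black at both probe sets. The brighter one read 1381, 1394 and 1528 in Japanese Black and 1716, 1525 and 1865 in Holstein, where Holstein 2 lay just under the highest Japanese Black animal. Its log2 difference was -0.24 (SE 0.14, limma adjusted p 0.483). At the dimmer probe set it was -0.31, and there the breeds did not overlap. PSMD11, PSMD13 and PSMD6, of the lid, had differences of -0.02, 0.07 and 0.04. A second, far dimmer probe set of PSMD6 gave 0.45. It read 156 in Japanese Black 3, while the other animals lay between 52.7 and 96.7.

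PSME4, the largest difference upward, encodes PA200, a single-chain activator that caps the 20S core without ATP and is known to favour the degradation of acetylated histones. It read 2064, 2285 and 2050 in Japanese Black and 1229, 1757 and 1381 in Holstein. The lowest Japanese Black animal lay 293 units above the highest Holstein animal, Holstein 2. It differed by 0.56 on the log2 scale (SE 0.16), or 1.47-fold, with a 95% interval from 0.20 to 0.92, an unadjusted p of 0.00673 and an adjusted p of 0.313 in limma. It kept its sign in all 6 fits that left out 1 array, between 0.45 and 0.70, with limma adjusted p from 0.156 to 0.629, and did not pass in any. PSMF1, an inhibitor of the 20S core, read 533, 332 and 440 in Japanese Black and 450, 439 and 460 in Holstein. Its 3 Holstein values lay within 21.5 units of each other. Japanese Black 1 lay above them, Japanese Black 2 below them and Japanese Black 3 among them. The difference was -0.07 (SE 0.19, limma adjusted p 0.895).

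The assembly chaperones, which help the rings to form and do not remain in the finished complex, had 2 of 6 genes higher and 4 lower, with a median of -0.08. PSMG1, a chaperone of the alpha ring, read 688, 561 and 630 in Japanese Black and 865, 715 and 846 in Holstein. The breeds lay apart, with 26.5 units between Japanese Black 1 and Holstein 2, and the log2 difference was -0.36 (SE 0.16, limma adjusted p 0.393). PSMG2, its partner in the same chaperone, read 1134, 1185 and 1154 against 1147, 1029 and 1116, a difference of 0.08 (SE 0.13, limma adjusted p 0.820). PSMG3, of a further chaperone pair, read 180, 199 and 198 against 177, 185 and 263, and only Holstein 3 stood out. PSMD5, PSMD9 and PSMD10, chaperones of the 19S base, had differences of -0.07, -0.14 and 0.04. PSME3IP1 had -0.14.

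Holstein 3 was the animal that was most often the highest within the complex. It was the highest array for 18 of the 40 genes, or 45.0%, where it was the highest for 24.3% of all tested probe sets, and it was the lowest for 5, or 12.5%, against 27.6%. Japanese Black 2, at 10, Japanese Black 3, at 9, Holstein 1, at 7, and Japanese Black 1, at 6, were each the lowest more often. Of the 10 PSMB genes, constitutive and inducible, 9 were highest in Holstein 3, the exception being PSMB5. Of the 6 PSMA genes 1 was highest and 2, PSMA3 and PSMA4, were lowest in that animal. PSMC6, PSMD1 and PSMD14 were lowest in it as well. After quantile normalization 24 genes were highest and 4 lowest in Holstein 3, with 9 of 10 PSMB genes highest and PSMB4 as the exception. After median centring the counts were 19 and 5, again with 9 PSMB genes highest. Japanese Black 2 was the highest for 10 members and the lowest for 10, among them all 5 immunoproteasome genes. The part of the control signals of Holstein 3 in its subunit levels was not tested.

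**Figure D4:**
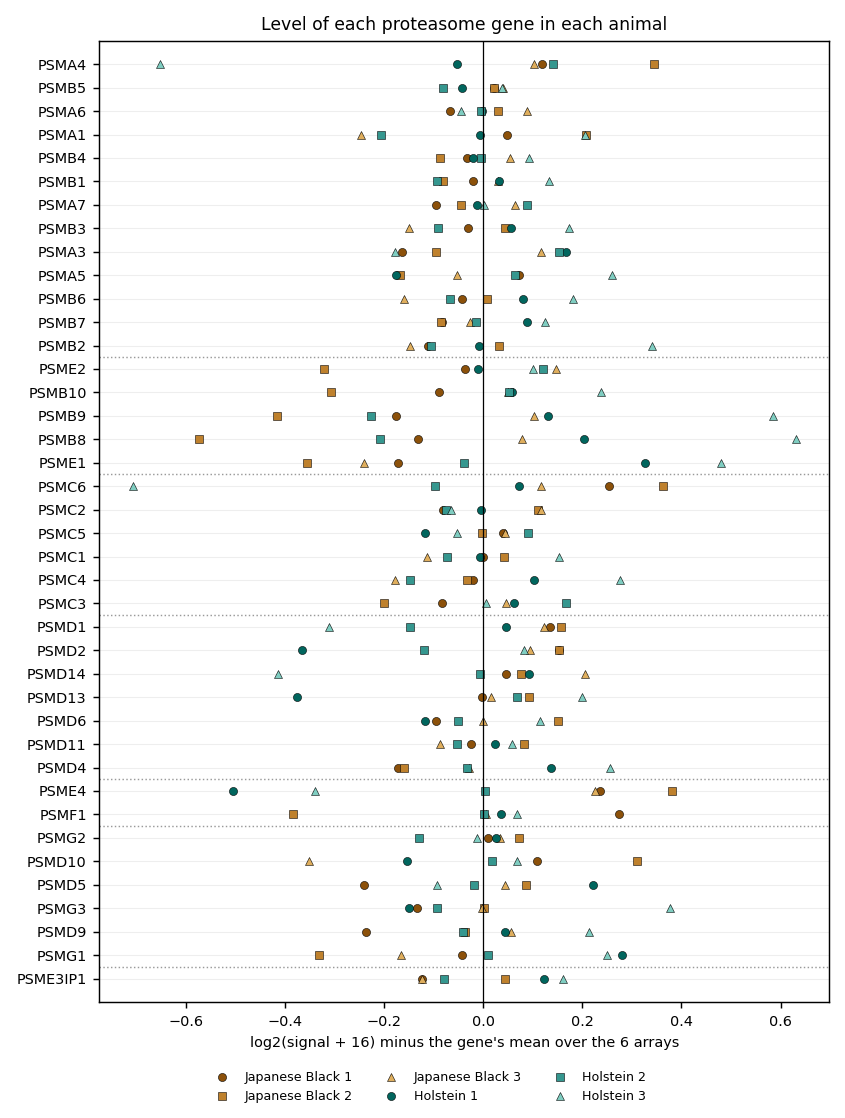
Level of each of the 40 genes in each animal, as log2(signal + 16) minus the gene's mean over the 6 arrays, with dotted lines between the parts of the complex. PSMA4 and PSMC6 are far to the left in Holstein 3 (light triangle), while PSMB8 and PSMB9 are far to the right in that animal and far to the left in Japanese Black 2.

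Genes that control proteasome synthesis, deliver substrates or supply ubiquitin gave 0 of 30 past the adjusted threshold in limma. At an unadjusted p under 0.05, which 12.6% of all tested probe sets reached, there were 3, 2 of them higher in Japanese Black. Their differences were above 0 for 22 and below 0 for 8, where 51% of all tested probe sets were above 0. The median was 0.15 beside 0.0067 for all tested probe sets. For those in the signal range of the constitutive 20S genes, which some of the 30 lie below, it was 0.066. The breeds did not overlap for 6 toward Japanese Black and 1 toward Holstein, where 11.0% and 8.84% of all tested did so. SQSTM1, the p62 receptor that delivers ubiquitinated cargo to autophagy, read 5149, 5046 and 4779 in Japanese Black and 6328, 5889 and 7006 in Holstein, a log2 difference of -0.36 (SE 0.11, limma adjusted p 0.321). USP14, a deubiquitinase bound to the 19S base, read 915, 970.1 and 961 against 791, 701 and 638, a difference of 0.42 (SE 0.15, limma adjusted p 0.347). Neither overlapped between the breeds. RAD23B, a shuttle that carries ubiquitinated proteins to the 19S particle, had a difference of 0.45 (SE 0.18, limma adjusted p 0.372), with Holstein 2 at 3704 close to the Japanese Black animals at 3742 to 3870. UCHL5 and TXNL1, further proteins bound to the 19S particle, were among the 6 and had differences of 0.28 and 0.46. Both were lowest in Holstein 3. UCHL5 read 1369, 1337 and 1040 in Holstein 1 to 3, and TXNL1 read 1129, 1122 and 661. The largest difference in size among the 30 was downward, that of AKIRIN2 (-0.49, SE 0.22, limma adjusted p 0.405), whose breeds overlapped. It read 2307, 1715 and 3377 in Holstein 1 to 3. NFE2L1, the transcription factor that drives proteasome genes when proteasome activity is short, had a difference of 0.28 (SE 0.18, limma adjusted p 0.518), and its breeds overlapped. POMP, which matures the 20S core, had 0.037 and VCP, the ATPase that extracts substrates, -0.0044.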

How the data were processed

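The authors deposited linear intensity values of 24128 probe sets, made with Affymetrix Expression Console 1.1 and GCOS 1.1.1 per the submitters' processing notes. How probes were summarised and scaled is not given in the sources used here. No scaling was added. Without 112 controls and the dimmest 25%, 18012 probe sets were compared as log2(signal + 16) with limma 3.58.1 in R 4.3.3 (eBayes with an intensity trend, two-sided, Benjamini-Hochberg over all tested). A run on simulated data checked only that most changes far larger than those of the members were called. Intervals are limma's 95% ones. The series design names a paired test, but the fit was unpaired because the labels give no pairs. A limma p-value weighs the breed difference against the spread between these animals, which limma adjusts with that of other probe sets. It covers no other source of variation.

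Symbols came from the platform annotation; the 40 members matched RefSeq by gene identifier and 0 symbols changed. Members and lists were chosen with earlier results of these data known. Named were the immunoproteasome genes and their constitutive counterparts, the 6 members per direction with the smallest p, PSME4, PSMF1, the PSMG genes, the first 3 genes of each pathway or marker list that is described, and, after their values were seen, other subunits and pathway genes. Muscle, adipocyte, fibroblast, erythrocyte and smooth muscle markers were also computed, and 0 of their genes passed; the medians were 0.04, 0.08, -0.24, -0.23 and -0.03. Figures used matplotlib 3.10.9 in Python 3.11.15.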

Additional observations from a re-analysis of the deposited data

How the results depend on the processing

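The count of members past the adjusted threshold was 0 under all 17 alternatives, including a threshold of 0.10, and at an unadjusted p under 0.05 it was 1 to 6 when each array was left out in turn (7.50% to 14.6% of all tested) and 2 without the intensity trend (12.7% of all tested). Members whose breeds did not overlap numbered 5 after median centring (20.6% of all tested) and 10 to 18 with 1 array left out, where 25.3% to 33.9% of all tested probe sets did so. After quantile normalization 10 members were above 0, and the medians were -0.14 for all members, -0.12 for the 20S core and -0.016 for the 19S particle; array weights gave 0.083 for the 19S particle. With 1 array left out the medians ran from -0.094 to -0.0030 for all members, from -0.092 to -0.0099 for the 20S core, from -0.52 to -0.17 for the immunoproteasome genes and from -0.013 to 0.089 for the 19S particle. Members above 0 numbered 13 to 20 in those fits. The causes of these shifts were not tested. Of 304 combinations of a named gene and an alternative, 300 kept direction and side of the threshold. The 4 others reversed, each for a gene near 0: PSMB5 (-0.0033) and PSMG2 (-0.0063) after quantile normalization, PSMF1 without Japanese Black 2 and PSMG3 without Holstein 3. With 1 array left out PSMF1 ran from -0.22 to 0.10 and PSMG3 from -0.19 to 0.076. No paired analysis was possible because the labels name no pairs of animals. The alternatives for the unadjusted, non-overlap and interval counts and for the ratios were applied after seeing the data. The 3 arrays a breed limit precision most in variable genes: the 95% interval of PSMB8 ran from -0.99 to 0.16.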
